A study of Mus musculus with 32 samples.

Results

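The striatal transcriptome of Line 4a was examined at 9 genes: the 5 dopamine receptor genes *Drd1a*, *Drd5*, *Drd2*, *Drd3* and *Drd4*, and 4 genes, *Tac1*, *Adora2a*, *Gpr6* and *Gpr52*, whose transcripts separate the subtypes of striatal projection neuron. They were chosen by name, as rows of count tables that hold 23420 genes, and all 9 were found. Line 4a mice are heterozygous for a small DBA/2J (D2) segment of chromosome 11 on a C57BL/6J (B6) background, and the comparison group was their B6 wild-type littermates, with 8 mice per genotype. All 16 mice were drug naïve and about 50 days old according to the labels, and striatal punches from both hemispheres were pooled within a mouse. Wild-type and congenic mice of these sublines alike can carry a D2-derived marker on chromosome 3. The question for these genes was whether the striatum of Line 4a differed from that of B6 in dopamine receptor transcripts or in the balance of the projection neuron subtypes, since the segment was mapped for locomotor sensitivity to methamphetamine, a drug that releases dopamine. None of the 9 genes lies on chromosome 11.

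Most neurons of the striatum are GABAergic projection neurons, and they fall into subtypes by the dopamine receptor they make. Direct pathway neurons carry the D1 receptor, which couples through the G protein Golf to adenylyl cyclase and raises cAMP, and they make substance P from *Tac1*. Indirect pathway neurons carry the D2 receptor, which couples to Gi and Go proteins and lowers cAMP, together with an adenosine receptor made from *Adora2a* and the orphan receptors GPR6 and GPR52. The D5 receptor belongs to the D1-like family, and the D3 and D4 receptors to the D2-like family.

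The promoters of a receptor and a further marker of each subtype are shown, because cAMP is the messenger that these receptors act on. Whether any motif bears on the levels of these genes was not tested. The sequences are RefSeq windows of GRCm38.p6 (the mm10 build) that end at the base before the outermost annotated start of the gene, written in the direction of transcription. Letters in capitals mark the cAMP response element TGACGTCA or its core TGACG on either strand, the shorter motif lying within the longer one.
*Drd1a* promoter, chr13:54055659-54055908, minus strand: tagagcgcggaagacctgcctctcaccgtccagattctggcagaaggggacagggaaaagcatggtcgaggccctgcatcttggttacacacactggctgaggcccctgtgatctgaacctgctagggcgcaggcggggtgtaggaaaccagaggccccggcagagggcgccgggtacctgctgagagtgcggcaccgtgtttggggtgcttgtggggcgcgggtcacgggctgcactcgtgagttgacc
*Tac1* promoter, chr6:7554811-7555060, plus strand: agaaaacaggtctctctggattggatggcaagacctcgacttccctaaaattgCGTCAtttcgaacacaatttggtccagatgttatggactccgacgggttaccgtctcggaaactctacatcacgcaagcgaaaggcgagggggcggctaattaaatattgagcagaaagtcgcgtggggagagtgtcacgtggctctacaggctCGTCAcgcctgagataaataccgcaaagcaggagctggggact
*Drd2* promoter, chr9:49340153-49340359, plus strand: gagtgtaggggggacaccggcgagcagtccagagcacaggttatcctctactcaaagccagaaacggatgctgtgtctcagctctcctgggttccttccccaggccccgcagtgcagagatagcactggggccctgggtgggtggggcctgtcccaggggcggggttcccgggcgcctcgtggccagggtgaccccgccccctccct
*Gpr6* promoter, chr10:41072291-41072540, minus strand: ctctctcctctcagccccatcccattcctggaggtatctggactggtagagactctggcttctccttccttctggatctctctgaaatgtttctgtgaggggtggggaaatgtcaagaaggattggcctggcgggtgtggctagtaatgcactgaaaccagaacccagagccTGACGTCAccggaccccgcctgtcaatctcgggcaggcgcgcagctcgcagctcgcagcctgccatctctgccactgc

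The *Gpr6* window held the full cAMP response element, from 78 to 71 bases upstream of the start. Of 32851 RefSeq windows of 250 bases, 1.55% held that motif on either strand. The *Tac1* window held 2 matches to the core, from 197 to 193 and from 43 to 39 bases upstream, and 17.8% of the windows held it at least 1 time. Neither form was found in the *Drd1a* window of 250 bases or the *Drd2* window of 207 bases. The *Drd5* window of 250 bases and the *Drd4* window of 206 bases, not shown, also held neither. No window was available for *Drd3*, *Adora2a* or *Gpr52*. In windows cut to the *Drd2* length, the shares were 0.935% for the full motif and 13.5% for the core. The *Drd2* window held the GC box GGGCGG in each orientation, a motif of 26.0% of windows of that length. The *Tac1* window also held it, from 107 to 102 bases upstream, as did 32.7% of windows of 250 bases. The GC content of the windows shown ran from 51.2% for *Tac1* to 67.6% for *Drd2*. These matches describe the letters in the windows only.

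Reads counted on genes ranged from 19032826 to 33748353 per mouse in B6 and from 24912413 to 32085311 in Line 4a, the lowest belonging to B6 mouse 7, for which 1 lane file was analysed rather than 2. Shares of a library are given of its counted total, which includes the rows that name no gene and holds no unaligned reads. A pair of libraries stood apart. In Line 4a mouse 1, 27.3% of that total was in the class of more than 1 alignment, against at most 21.4% in any other mouse. In B6 mouse 8, 68.3% of the total was counted on genes, against a B6 median of 63.7%. This mouse had the highest B6 level of 5 of the 9 genes. Where one of these mice set a result, the value without it is given beside that result. Markers of the labelled tissue were abundant in every mouse: the 12 genes shared by all projection neurons, among them *Ppp1r1b* (DARPP-32), *Pde10a* and *Rgs9*, summed to between 9034 and 13034 CPM (counts scaled to library size).

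Levels of different genes were compared as CPM per kilobase of annotated exon, which corrects for transcript length. *Tac1* was the most abundant at 162 CPM per kb (mean of 16 mice), followed by *Adora2a* at 142, *Drd1a* at 68.3, *Drd2* at 53.9 and *Gpr6* at 17.0. The other 3 receptor genes lay far lower, *Drd5* at 1.38 CPM per kb, *Drd3* at 0.421 and *Drd4* at 0.0601. Neighbours in this order were separated where the ranges over the 16 mice did not overlap, which held for *Adora2a* above *Drd1a*, *Drd2* above *Gpr6*, *Gpr6* above *Drd5*, and *Drd5* above *Drd3*. The ranges of *Tac1* and *Adora2a*, of *Drd1a* and *Drd2*, and of *Drd3* and *Drd4* overlapped. Within a mouse, *Drd1a* was still above *Drd2* in 16 of 16 mice, by 1.27-fold per kb on average, and *Tac1* was above *Adora2a* in 14 of 16. *Gpr52* had no annotated length in the annotation used and was not placed.

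**Figure D1:**
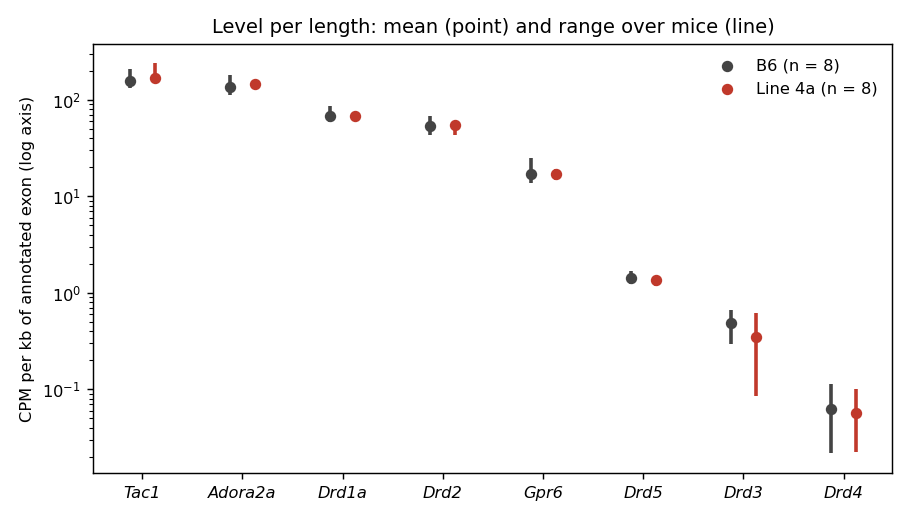
Level per length of 8 genes, as TMM-scaled CPM per kilobase of annotated exon on a log axis, with the mean (point) and range (line) over 8 B6 and 8 Line 4a mice. The genes run from *Tac1* at 162 to *Drd4* at 0.0601 CPM per kb, and the genotypes lie side by side at every gene.

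All levels from here on are CPM scaled by the trimmed mean of M values (TMM), which compares 1 gene between mice and not genes with each other. *Drd1a* (RefSeq symbol *Drd1*, chr13:54051183-54055658) encodes the D1 receptor, the main Golf-coupled dopamine receptor of the direct pathway. Its lowest, median and highest levels were 207.8, 222.5 and 307.6 CPM in B6 and 218.3, 243.8 and 254.3 CPM in Line 4a. The Line 4a mice lay entirely inside the B6 range, and 7 of 8 exceeded the B6 median. The means were 239.4 ± 36.3 CPM in B6 and 241.9 ± 12.2 CPM in Line 4a (SD, n = 8 each), a log2 fold change of 0.01 (SE 0.08, 95% interval -0.14 to 0.17) with an adjusted p of 0.960 by the edgeR quasi-likelihood test. Without B6 mouse 8, which had the highest level, the log2 fold change was 0.07 (SE 0.06). Without both libraries that stood apart it was 0.08 (SE 0.06). In bulk tissue, fewer cells of a type and less RNA per cell cannot be told apart, for this gene and all that follow.

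*Drd5* (chr5:38319509-38322523) encodes the D5 receptor, which in striatum is known best from interneurons. Its levels were 3.50, 4.03 and 4.72 CPM in B6 and 3.26, 3.77 and 4.13 CPM in Line 4a, on 90 to 139 reads per mouse. The groups overlapped, with 6 of 8 Line 4a mice below the B6 median. The log2 fold change was -0.08 (SE 0.08, 95% interval -0.24 to 0.08, adjusted p = 0.733 by edgeR). The transcribed region of *Drd5* overlaps, over at most 1386 bases of exon, the gene *Gm16766*, which was not among the counted genes. Counting did not use the strand, so reads of that gene and of *Drd5* cannot be told apart.

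*Drd2* (chr9:49340360-49408177) encodes the D2 receptor of indirect pathway neurons, which is also made by cholinergic interneurons and by dopamine neurons. Its lowest, median and highest levels were 111.2, 134.4 and 175.0 CPM in B6 and 110.5, 140.7 and 150.4 CPM in Line 4a. The lowest value of all belonged to Line 4a mouse 1 and the highest to B6 mouse 8. The means were 135.8 ± 22.9 and 138.7 ± 13.2 CPM (SD, n = 8 each), a log2 fold change of 0.03 (SE 0.09, 95% interval -0.16 to 0.22, adjusted p = 0.921 by edgeR). Without these 2 mice it was 0.13 (SE 0.07, adjusted p = 0.420). The span of *Drd2* overlaps that of *Gm46111* (chr9:49404408-49410916), which was not among the counted genes. Whether reads of *Gm46111* contributed to the *Drd2* count was not tested.

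*Drd3* (chr16:43754015-43825982) encodes the D3 receptor, whose transcript is known mainly from the ventral striatum and the islands of Calleja. It was sparse, with 12 to 32 reads per B6 mouse and 4 to 26 per Line 4a mouse. Its levels were 0.424, 0.705 and 0.971 CPM in B6 and 0.125, 0.509 and 0.906 CPM in Line 4a. The 3 lowest values were Line 4a mice 1, 2 and 3, and the rest of Line 4a lay within the B6 range. The log2 fold change of -0.50 was the largest of the 9 genes and also the least precise (SE 0.28, 95% interval -1.07 to 0.08), with an unadjusted p of 0.0892 and an adjusted p of 0.560 by edgeR. An exact two-sided permutation test of the 16 mice gave p = 0.0662. Without Line 4a mouse 1 the log2 fold change was -0.34 (SE 0.23, unadjusted p = 0.151 by edgeR). The difference did not exceed the spread between mice.

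*Drd4* (chr7:141291974-141296464), the gene of the D4 receptor, was close to the limit of detection. Each mouse had 2 to 8 reads, 38 in all over the B6 mice and 37 over the Line 4a mice. It did not pass the filter on low counts and was not part of the test across genes. The levels were 0.0600 to 0.315 CPM in B6 and 0.0618 to 0.278 CPM in Line 4a, and they overlapped almost fully (exact two-sided permutation p = 0.653). At this depth a difference of modest size was not detectable.

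*Tac1* (chr6:7555061-7562978) encodes the precursor of substance P and neurokinin A and marks direct pathway neurons. Its lowest, median and highest levels were 136.6, 153.2 and 216.1 CPM in B6 and 155.2, 162.0 and 246.0 CPM in Line 4a. Each of the 8 Line 4a values exceeded the B6 median. Apart from mouse 1 at 246.0 CPM, they were tightly grouped between 155.2 and 171.2 CPM, with a coefficient of variation of 3.48%. The log2 fold change was 0.07 (SE 0.11, 95% interval -0.15 to 0.30, adjusted p = 0.832 by edgeR). Without Line 4a mouse 1 it turned to -0.02 (SE 0.08). Without B6 mouse 8, the highest of B6, it was 0.14 (SE 0.10), and without both mice 0.05 (SE 0.06).

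*Adora2a* (chr10:75316877-75334792) encodes an adenosine receptor that raises cAMP in indirect pathway neurons and so acts against the D2 receptor. Its levels were 283.8, 349.8 and 458.3 CPM in B6 and 328.8, 375.2 and 395.2 CPM in Line 4a. Every Line 4a mouse lay inside the B6 range, and 7 of 8 exceeded the B6 median. The top of that range was B6 mouse 8, and 4 of 8 Line 4a mice lay above the highest of the other B6 mice, at 372.0 CPM. The means were 347.7 ± 56.2 and 369.4 ± 21.3 CPM (SD, n = 8 each), a log2 fold change of 0.09 (SE 0.08, 95% interval -0.08 to 0.26, adjusted p = 0.714 by edgeR). Without B6 mouse 8 the log2 fold change was 0.15 and the unadjusted p was 0.0279, with an adjusted p of 0.53. The paper names *Adora2a* among its differentially expressed genes, from a model that included home cage. The labels do not give home cage, so that model was not refitted here. The authors' deposited values include likelihood ratios, so their test also differed from the quasi-likelihood test. With the likelihood ratio test of edgeR, without home cage, *Adora2a* had a log2 fold change of 0.09 (unadjusted p = 0.307, adjusted p = 0.778). Which difference in the processing or the model accounts for the different result was not tested.

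*Gpr6* (chr10:41069977-41072290) encodes an orphan receptor with constitutive activity toward cAMP that is enriched in indirect pathway neurons. Its levels were 24.5, 27.9 and 44.7 CPM in B6 and 26.2, 30.4 and 34.3 CPM in Line 4a. B6 mouse 8 lay well above the rest, and the other 7 B6 mice reached only 32.4 CPM, a level that 2 of 8 Line 4a mice exceeded. The log2 fold change was 0.02 (SE 0.10, 95% interval -0.20 to 0.23, adjusted p = 0.970 by edgeR), and 0.12 without that mouse.

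*Gpr52* (chr1:160574717-160579704) encodes a Gs-coupled orphan receptor that is found with the D2 receptor in the striatum. Its levels were 29.9, 37.9 and 42.4 CPM in B6 and 22.0, 34.7 and 37.3 CPM in Line 4a. The groups overlapped, but all 8 Line 4a mice lay below the B6 median. The means were 37.1 ± 4.98 and 33.2 ± 4.84 CPM (SD, n = 8 each), and the log2 fold change of -0.16 (SE 0.10, 95% interval -0.37 to 0.04) had an unadjusted p of 0.116 and an adjusted p of 0.588 by edgeR. The exact two-sided permutation test gave p = 0.150. Without Line 4a mouse 1, the lowest at 22.0 CPM, the log2 fold change was -0.10 (SE 0.07), and without both libraries that stood apart it was -0.07. *Gpr52* lies within the span of *Rabgap1l* (chr1:160219174-160793476), named here after its values were seen, whose log2 fold change was -0.14 (SE 0.05, unadjusted p = 0.0168, adjusted p = 0.424 by edgeR). Whether reads of *Rabgap1l* introns contributed to the *Gpr52* count was not tested.

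**Figure D2:**
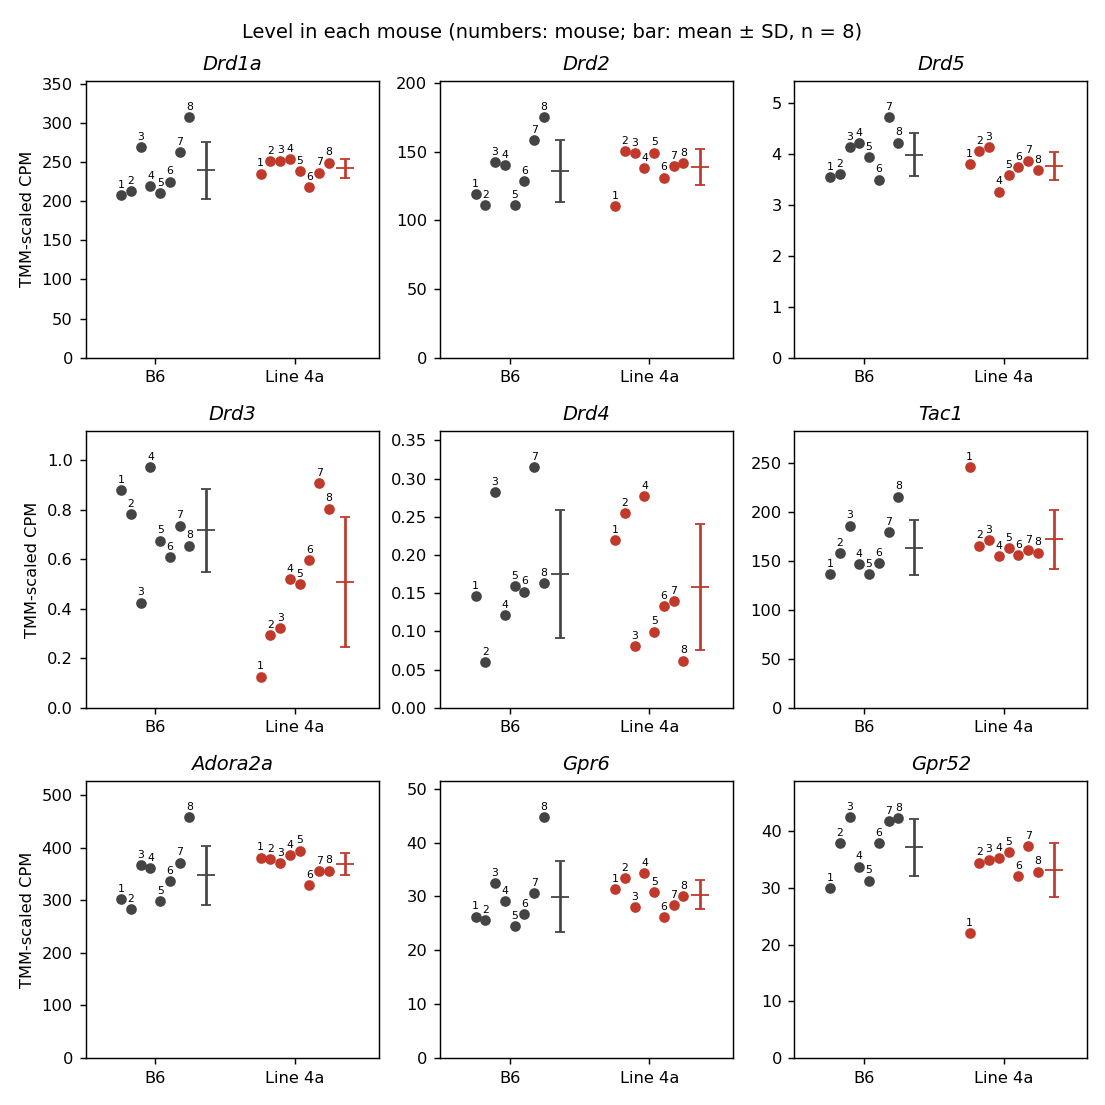
TMM-scaled CPM of the 9 genes in each of 8 B6 and 8 Line 4a mice, with the mouse number above each point and the mean ± SD beside each group. The groups overlap in every panel, with B6 mouse 8 the highest for *Gpr6* at 44.7 CPM and Line 4a mouse 1 the highest for *Tac1* at 246.0 CPM and the lowest for *Gpr52* at 22.0 CPM.

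Of the 8 genes tested, 0 passed a false discovery rate of 5%, a threshold that 0.00641% of the 15589 genes tested passed, which is the single gene *Tnip1*. None of the 8 had an unadjusted p under 0.05 either. Over all genes tested, 5.14% were lower and 4.86% were higher in Line 4a at that threshold. Of the 8 genes 5 had a positive and 3 a negative log2 fold change, where 8560 of the 15589 genes tested were positive. The median of the 8 was 0.01, the same to 2 decimals as the median of all genes tested. The size of a difference that the data leave possible can be read from the intervals. For the 7 genes other than *Drd3*, the 95% intervals of the log2 fold change lay between -0.37 and 0.30, which is between 0.773-fold and 1.23-fold of the B6 level. *Drd3* was not bounded that closely.

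**Figure D3:**
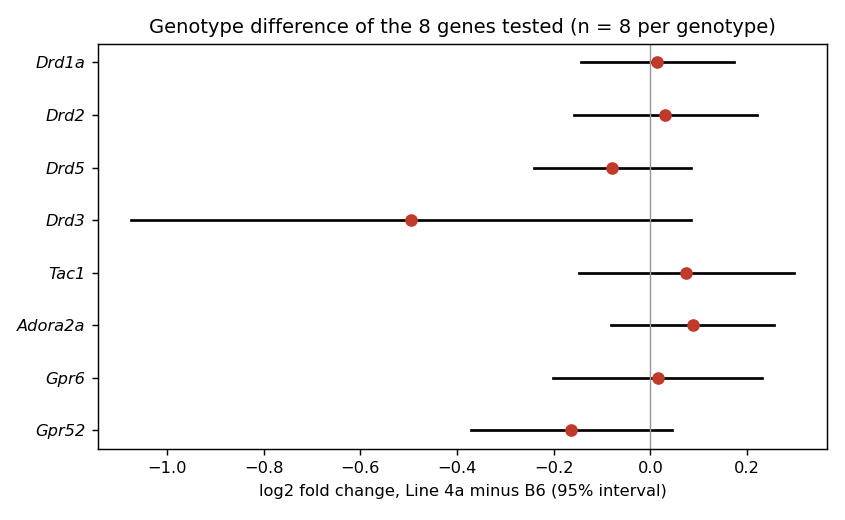
Log2 fold change of Line 4a against B6 with its 95% interval (edgeR quasi-likelihood fit, n = 8 mice per genotype) for the 8 genes tested. Every interval includes 0, and that of *Drd3*, from -1.07 to 0.08, is the widest.

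The genotype difference was next compared between the lane pairs, since mice 1 to 4 of each genotype were sequenced on lanes 5 and 6 and mice 5 to 8 on lanes 7 and 8. The direction differed between the lane pairs for 6 of the 8 genes, *Drd1a*, *Drd2*, *Drd3*, *Tac1*, *Adora2a* and *Gpr6*. B6 mouse 8 was on lanes 7 and 8. Without it, the difference of mean log2 CPM on those lanes had the same sign as on lanes 5 and 6 for all but *Drd3*. That difference was then 0.02 for *Drd1a*, 0.09 for *Drd2*, 0.06 for *Tac1*, 0.10 for *Adora2a* and 0.08 for *Gpr6*. *Drd1a* averaged 227.4 ± 28.6 CPM in B6 and 248.1 ± 8.65 CPM in Line 4a on lanes 5 and 6, but 251.5 ± 43.3 and 235.6 ± 12.9 CPM on lanes 7 and 8 (SD, n = 4 each). *Drd3* showed the widest gap. It averaged 0.764 ± 0.239 CPM in B6 and 0.315 ± 0.162 CPM in Line 4a on lanes 5 and 6, against 0.668 ± 0.0526 and 0.701 ± 0.187 CPM on lanes 7 and 8. The interaction of genotype with lane pair had an unadjusted p of 0.00833 for *Drd3*, the only one of the 8 genes under 0.05, where 1.88% of all genes tested were. Its adjusted p was 0.95 by edgeR, and so was the smallest of the other genes. Line 4a mouse 1, which had the lowest *Drd3* level, was on lanes 5 and 6. Without it, Line 4a averaged 0.378 ± 0.124 CPM there (SD, n = 3), and the interaction had an unadjusted p of 0.0189 and an adjusted p of 1.00 by edgeR. *Gpr52* was lower in Line 4a on both lane pairs, by log2 fold changes of -0.18 and -0.15, and *Drd5* by -0.02 and -0.14.

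The spread between mice, over all 16, was wider in B6 for *Drd1a*, *Adora2a*, *Drd2*, *Gpr6* and *Drd5*. The coefficient of variation of *Drd1a* was 15.2% in B6 and 5.04% in Line 4a, that of *Adora2a* was 16.2% and 5.76%, that of *Drd2* was 16.8% and 9.51%, that of *Gpr6* was 21.7% and 8.99%, and that of *Drd5* was 10.6% and 7.25%. The values of *Drd5* lie close to its counting CV, which was 9.47% in B6 and 9.55% in Line 4a. For *Drd3* the spread was wider in Line 4a, 23.5% against 51.7%. For *Tac1* it was 17.1% in B6 and 17.6% in Line 4a, for *Gpr52* 13.4% and 14.6%, and for *Drd4* 47.8% and 51.9%. Line 4a mouse 1 set several of the Line 4a values. Without it they were 3.48% for *Tac1*, 5.31% for *Gpr52* and 40.7% for *Drd3*, so that *Tac1* and *Gpr52* then also had the wider spread in B6. Without B6 mouse 8 the B6 values were 11.1% for *Drd1a*, 11.1% for *Adora2a*, 13.6% for *Drd2* 10.4% for *Gpr6* and 12.7% for *Tac1*. These are descriptions, and the spreads were not tested against each other.

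Several of the genes varied together across mice. The log2 ratio of *Drd1a* to *Drd2*, from CPM not corrected for length, was 0.82 ± 0.10 in B6 and 0.81 ± 0.13 in Line 4a (SD, n = 8 each), which is 1.77-fold and 1.75-fold. Over the 16 mice it ran from 0.65 in B6 mouse 4 to 1.09 in Line 4a mouse 1. Without that mouse the Line 4a ratio was 0.77 ± 0.07 (SD, n = 7). Set against the mean log2 CPM of the 12 genes shared by both subtypes, *Drd1a* had an SD over the 16 mice of 0.05, against 0.15 for its own log2 level. The corresponding SDs were 0.08 and 0.19 for *Drd2*, 0.08 and 0.17 for *Adora2a*, and 0.12 and 0.21 for *Gpr6*. For *Tac1* they were 0.20 and 0.22, and for *Gpr52* 0.18 and 0.23. These last values rested on Line 4a mouse 1. Over the other 15 mice the SDs were 0.08 and 0.17 for *Tac1*, like those of *Drd2* (0.07 and 0.18), and 0.11 and 0.16 for *Gpr52*. In Line 4a mouse 1, *Tac1* lay 0.57 above its mean over the 16 mice on the log2 scale, while *Gpr52* lay at -0.66 and *Drd2* at -0.30. *Drd1a*, at -0.02, and *Adora2a*, at 0.10, were close to theirs in the same mouse. For *Drd5* the SDs were 0.14 against the mean and 0.13 for its own level. Its counting CV of 9.47% in B6 and 9.55% in Line 4a is close to that spread. These values therefore cannot show whether *Drd5* followed the mean.

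**Figure D4:**
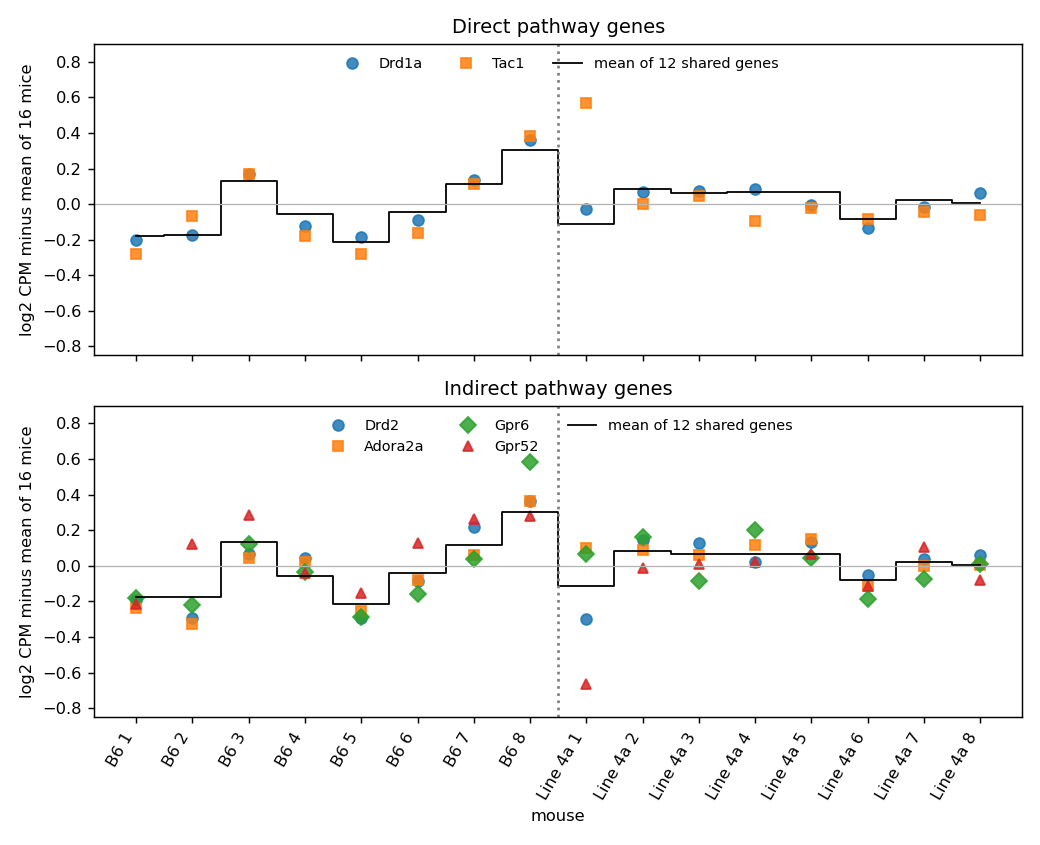
Log2 CPM of each gene minus its mean over the 16 mice, by mouse, for direct pathway genes (upper panel) and indirect pathway genes (lower panel), with the mean of the 12 genes shared by projection neurons as a black line. Most points follow the line, which is highest in B6 mouse 8, while in Line 4a mouse 1 *Tac1* lies at 0.57 and *Gpr52* at -0.66.

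The transcripts whose pattern over mice was most like that of each main receptor were found by correlation of log2 CPM over the 16 mice, after the mean of each genotype was subtracted, among 15588 other genes. The order depended on the libraries that stood apart, and is given first over all 16 mice. For *Drd1a* these were *Ppp3ca* (Pearson r 0.94, Spearman rho 0.93), the catalytic subunit of calcineurin, then *Gcnt2*, *Rasgef1a*, *Klhl13* and *Fam110b*, the last with r 0.92 and rho 0.91. For *Drd2* they were *Scn4b* (r 0.97, rho 0.94), a sodium channel beta subunit, then *Tgfa*, *Pde1b*, *Bcl11b* and *Cdk19*, the last with r 0.93 and rho 0.84. *Bcl11b* (CTIP2) is a transcription factor of projection neurons of both subtypes, and it was also the gene in position 7 for *Drd1a* (r 0.91, rho 0.89). *Drd1a* and *Drd2* correlated with each other at r 0.81 and rho 0.78. The indirect pathway genes *Gpr6* (r 0.89, rho 0.85, position 18) and *Adora2a* (r 0.87, rho 0.79, position 28) stood nearer to *Drd1a* than the direct pathway gene *Tac1* did (r 0.64, rho 0.63, position 520) over the 16 mice. Without Line 4a mouse 1 this order turned, with *Tac1* at r 0.92 and rho 0.84 (position 34), *Gpr6* at r 0.90 and rho 0.87 (position 51) and *Adora2a* at r 0.89 and rho 0.82 (position 80). Without B6 mouse 8, *Tac1* stood at r 0.45 and rho 0.48 (position 975). *Tac1* and *Drd2* correlated at r 0.24 and rho 0.38 over the 16 mice, at r 0.83 and rho 0.84 without Line 4a mouse 1, and at r -0.07 and rho 0.31 without B6 mouse 8. *Drd1a* and *Drd2* moved less, to r 0.88 and r 0.71 without the one and the other. The 5 genes named for *Drd1a* took positions 10 to 33 without Line 4a mouse 1, and the 5 for *Drd2* positions 2 to 18. All these points share the same libraries and the same dissected tissue, so they describe these samples.

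**Figure D5:**
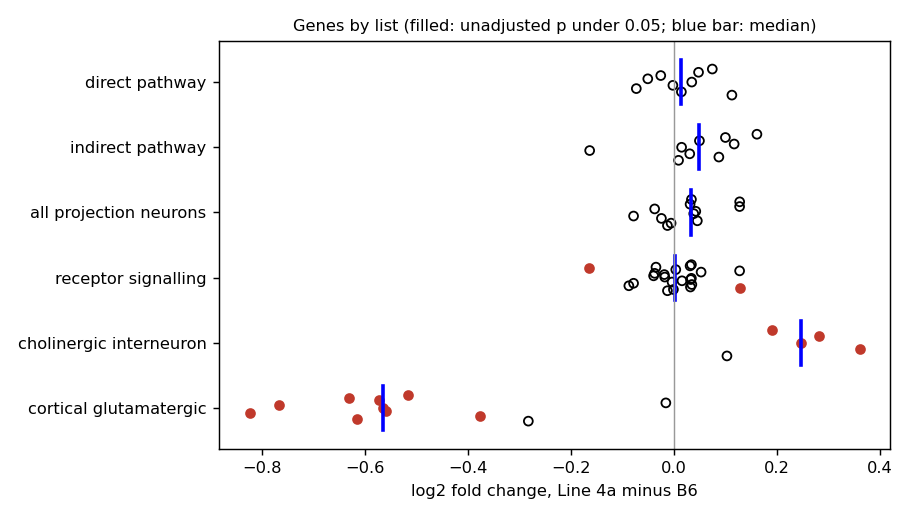
Log2 fold change of Line 4a against B6 for each gene tested in 6 lists, filled where the unadjusted p was under 0.05, with a blue bar at the median of the list. The projection neuron and receptor signalling lists centre near 0, with medians from 0.00 to 0.05, the cholinergic list lies to the right (median 0.25) and the cortical list to the left (median -0.56).

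The other markers of the same neurons were then counted. Of the 9 direct pathway genes, *Drd1a* and *Tac1* included, 0 had an unadjusted p under 0.05, and their median log2 fold change was 0.01. Outside those 2, the genes at the highest levels were *Chrm4*, the M4 muscarinic receptor, with a log2 fold change of 0.11 (SE 0.07), and *Sfxn1* with -0.03 (SE 0.05). Of the 9 indirect pathway genes, 0 had an unadjusted p under 0.05, and the median log2 fold change was 0.05. A positive log2 fold change was found for 8 of 9, and for 8560 of all 15589 genes tested. *Penk*, the enkephalin precursor of indirect pathway neurons, averaged 1153 ± 140 CPM in B6 and 1251 ± 173 CPM in Line 4a (log2 fold change 0.12, SE 0.08, adjusted p = 0.644 by edgeR), and *Adk*, adenosine kinase, had a log2 fold change of 0.01 (SE 0.08). The 12 shared projection neuron genes had a median of 0.03, again with 0 under 0.05. Without both libraries that stood apart, all 12 had a positive log2 fold change (median 0.08) and 3 had an unadjusted p under 0.05, where 5.44% of all genes tested were higher, with a lowest adjusted p of 0.297 by edgeR. Those at the highest levels were *Pde10a*, the cyclic nucleotide phosphodiesterase of these cells, at -0.04 (SE 0.11), and *Arpp21* at -0.01 (SE 0.07).

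Among 22 genes that act downstream of the dopamine receptors, 1 was lower and 1 higher at an unadjusted p under 0.05, where 5.14% of all genes tested were lower and 4.86% higher, so these counts are near the background. The median log2 fold change was 0.00. *Prkar1b*, a regulatory subunit of protein kinase A, averaged 466.1 ± 32.5 CPM in B6 and 416.1 ± 33.7 CPM in Line 4a (log2 fold change -0.16, unadjusted p = 0.00938, adjusted p = 0.397 by edgeR). *Arrb2*, beta-arrestin 2, averaged 34.3 ± 2.99 and 37.5 ± 2.46 CPM (log2 fold change 0.13, unadjusted p = 0.0417, adjusted p = 0.479 by edgeR). Without Line 4a mouse 1 the unadjusted p of *Arrb2* was 0.0723, and without B6 mouse 8 it was 0.0803. Of the core members of the cascade, the G protein subunit *Gnal* (Golf alpha), at a log2 fold change of -0.08, the cyclase *Adcy5*, at -0.01, and *Ppp1r1b*, at 0.13, had adjusted p-values of 0.686 or more.

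Markers of 2 other cell types lay off 0. Of 11 cortical glutamatergic markers, 9 had an unadjusted p under 0.05 and all 9 were lower in Line 4a, where 5.14% of all genes tested were, with a list median of -0.56 and a lowest adjusted p of 0.331. Their summed level ran from 472.0 to 781.6 CPM in B6 and from 305.1 to 679.2 CPM in Line 4a, and no marker was at 0. Among those with the smallest p were *Neurod6* (log2 fold change -0.56), *Slc17a7* (-0.63) and *Nrn1* (-0.77). Of 5 cholinergic interneuron markers, which bear on *Drd2* and *Drd5* because those cells make both receptors, 4 were higher at that threshold, where 4.86% of all genes tested were, with a list median of 0.25 and a lowest adjusted p of 0.385. These included *Lhx8* (0.36), *Slc5a7* (0.19) and *Slc18a3* (0.28), and *Chat* had 0.10 (SE 0.10). Without both libraries that stood apart, 10 of the 11 cortical markers were lower and 3 of the 5 cholinergic markers higher at that threshold. The summed level of the list ran from 82.6 to 107.6 CPM in B6 and from 90.7 to 135.9 CPM in Line 4a. With a cortical score of each mouse in the fit, which averages the standardized levels of the 11 cortical genes, the log2 fold changes of *Drd1a* and *Drd2* were -0.02 and -0.05, and that of *Drd3* was -1.09 (unadjusted p = 0.00573, adjusted p = 0.953 by edgeR). In that fit, 430 of the 15589 genes tested had an unadjusted p under 0.05. The fit was not run without Line 4a mouse 1, which had the lowest *Drd3* level. The part of the cholinergic markers in these results was not tested. Of 6 markers of ventral striatum and septum, where *Drd3* is known to be made, 0 had an unadjusted p under 0.05, with a list median of 0.02 and summed levels of 248.7 to 332.1 CPM in B6 and 230.8 to 376.4 CPM in Line 4a. The 2 at the highest levels were *Wfs1* (0.13, SE 0.09) and *Crym* (-0.01, SE 0.11).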

How the data were processed

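Bilateral striatal punches of 16 mice were sequenced by the authors as strand-marked poly(A) libraries in single-end reads. Per the methods and scripts, the last base was trimmed, TopHat (bowtie2 2.2.2) placed the reads on mm10 with the UCSC annotation, and htseq-count 0.6.1p1 assigned them to genes in union mode, ignoring the strand. The deposited values are raw counts, 1 file per library and lane, that leave out reads with several alignments or on several genes. The submitters' processing notes also name FastQC 0.10.1, TopHat2 2.0.0 and edgeR 2.14. The authors' deposited tables of log2 fold changes, log2 mean CPM, likelihood ratios, p-values and FDRs from their own model, which included home cage, were not used.

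From 31 of 32 lane files, counts were summed per mouse, since the lanes of a library agreed within sampling noise (chi-square per degree of freedom 0.997 to 1.051). Rows that name no gene stayed out of library sizes. They were mainly the class of several alignments, 19.5% to 27.3% of the counted total, and reads outside genes, 10.2% to 15.9%. Genotype came from the labels, which give neither home cage nor sex. Mice are separate animals. Genes passing filterByExpr (15589) were TMM-normalized and tested by quasi-likelihood in edgeR 4.0.16 (R 4.3.3), and p-values were adjusted over all of them by the Benjamini-Hochberg method. A prior count of 0.5 entered log2 CPM. Single genes also had exact permutation tests (scipy 1.17.1, Python 3.11.15). Exon lengths came from GENCODE vM1 (NCBIM37), positions and promoters from RefSeq GRCm38.p6. The script was tested on simulated data. At this depth counting error limits *Drd3* and *Drd4*, and is close to the spread between mice for *Drd5* (a counting CV of 9.47% in B6 and 9.55% in Line 4a).

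The genes and lists were chosen with earlier results of these data known. Lists covered direct, indirect and all projection neurons, receptor signalling, and cholinergic, cortical, midbrain dopamine, choroid plexus, hypothalamus, oligodendrocyte, and ventral striatum and septum markers. From each list the text names genes with an unadjusted p under 0.05, up to the 4 smallest, or else the 2 at the highest level. Single values of some list genes are not reported here. For *Drd1a* and *Drd2* it names the 5 most correlated genes. Other genes it names (*Tnip1*, *Rabgap1l*, *Chrm4*, *Sfxn1*, *Adk*, *Gnal*, *Adcy5* and *Chat*) were chosen after their values were seen. Alternatives were 2 other normalizations, no filter, DESeq2 1.42.0, the likelihood ratio test, the lane pair as a covariate and each lane pair alone, a replicate block, a cortical score, 1 lane file per mouse and each mouse left out. Values without the 2 libraries that stood apart were added after the data were seen.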

Additional observations from a re-analysis of the deposited data

Results flagged for a closer look

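A mouse was looked at again where its gap to the nearest other mouse of its genotype, divided by the range of the 8 mice, was above Dixon's 95% critical value for 8 samples. Of 34 groups examined (levels of the genes and ratios between them) 7 held such a mouse, and chance alone flags about 1 in 20 groups. Since the ratios share genes, these results are not independent of each other.

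Line 4a mouse 1 accounted for 5 of the 7. It had the highest *Tac1* level, 246.0 CPM, where the other 7 Line 4a mice lay between 155.2 and 171.2 CPM. It had the lowest *Gpr52* level, 22.0 CPM, where the others lay between 32.1 and 37.3 CPM. Its log2 ratio of *Tac1* to *Drd1a* was 0.064 (others -0.71 to -0.48), its log2 ratio of *Adora2a* to *Drd2* was 1.79 (others 1.32 to 1.48), and its log2 ratio of *Tac1* to *Adora2a* was -0.63 (others -1.31 to -1.07). In this library 27.3% of the counted total was in the class of more than 1 alignment and 10.2% fell outside genes. Its summed hypothalamus markers, at 21.8 CPM, were the highest of Line 4a. Its summed midbrain dopamine markers, at 54.4 CPM (B6 at most 41.0), and its summed indirect pathway markers other than the genes described here, at 1788 CPM (B6 at most 1539), were the highest of the 16 mice. Its summed direct pathway markers other than those genes, at 271.7 CPM (B6 249.7 to 312.2), were the lowest of Line 4a. So were its summed receptor signalling genes, at 12718 CPM (B6 11935 to 15820). The part of any of these in these values was not tested.

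B6 mouse 8 had the highest *Gpr6* level, 44.7 CPM, where the other B6 mice lay between 24.5 and 32.4 CPM. Its mean over the 12 shared projection neuron genes was also the highest of the 16 mice, 9.88 on the log2 CPM scale. B6 mouse 7, with 1 lane file, had the lowest log2 ratio of *Adora2a* to *Drd2* in B6, 1.23, where the others lay between 1.34 and 1.42.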

How the results depend on the processing

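Under none of the 12 other settings or the 16 fits without 1 mouse did any of the 8 genes tested pass an FDR of 5%. *Drd3* had 11 such settings, since it did not pass the filter with 1 lane file per mouse, and DESeq2 gave it no adjusted p. Signs were not stable for log2 fold changes near 0. With the mice of lanes 7 and 8 alone they were -0.099 for *Drd1a*, -0.034 for *Drd2*, 0.072 for *Drd3*, -0.095 for *Tac1*, -0.034 for *Adora2a* and -0.14 for *Gpr6*. Without B6 mouse 8 the difference of mean log2 CPM on those lanes was positive for each of these genes. With the cortical score as a covariate the log2 fold changes were -0.025 for *Drd1a* and -0.045 for *Drd2*. With each mouse left out in turn they ran from -0.010 to 0.072 for *Drd1a*, -0.0058 to 0.089 for *Drd2*, -0.018 to 0.14 for *Tac1* and -0.022 to 0.12 for *Gpr6*, while *Drd3* (-0.66 to -0.34), *Drd5* (-0.10 to -0.04), *Adora2a* (0.05 to 0.15) and *Gpr52* (-0.20 to -0.10) kept their signs. *Drd4*, tested only without the filter, had -0.08. The causes were not tested.

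The count of genes at an FDR of 5% was 1. It was 31 with DESeq2, 20 with the likelihood ratio test, 2 with the lane pair as a covariate, and 0 with the mice of lanes 5 and 6 alone, with those of lanes 7 and 8 alone and with the cortical score. Without 1 mouse it ran from 1 to 4, the 4 without Line 4a mouse 1 and 3 without Line 4a mouse 6. Without both B6 mouse 8 and Line 4a mouse 1, a setting added after the data were seen, it was 7, and *Adora2a* had 0.15 (unadjusted p = 0.0301, adjusted p = 0.346 by edgeR). With a replicate block the count was 0. The numbers did not pair the mice: deviations of same-numbered mice correlated at -0.12 to 0.36, over 0.1 in 3 of 8 pairs, and 3 of 16 mice correlated best with their own number. In the blocked fit *Gpr52* had -0.17 (unadjusted p = 0.0408, adjusted p = 0.550 by edgeR). The paper reports a longer list of genes at the same FDR than any of these settings gave. The cause of that gap was not tested.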

Other observations

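The remaining marker lists gave these values. Of 4 midbrain dopamine neuron markers tested, 1 was higher at an unadjusted p under 0.05, where 4.86% of all genes tested were, *Slc10a4* (12.8 ± 1.30 CPM in B6, log2 fold change 0.23, adjusted p = 0.476 by edgeR). Without Line 4a mouse 1, in which the summed level of this list was 54.4 CPM against a Line 4a median of 40.6 CPM, the log2 fold change was 0.14 (unadjusted p = 0.0866). *Slc6a3*, the dopamine transporter of midbrain neurons, did not pass the filter on low counts. Of 3 hypothalamic markers tested, 1 did, *Nkx2-1*, also higher in Line 4a (log2 fold change 0.32, adjusted p = 0.437 by edgeR) and with an unadjusted p of 0.0776 without both libraries that stood apart, while 4 others did not pass the filter. Of 7 oligodendrocyte markers 0 did, with *Mbp* at 0.11 (SE 0.08). All 7 had a positive log2 fold change (median 0.10), as did 8560 of all 15589 genes tested. Without B6 mouse 8 it was positive for 6 of 7, and for 8235 of all 15631 genes tested. Of 6 choroid plexus markers 0 had an unadjusted p under 0.05 (median 0.21). *Ttr*, at 44.5 ± 36.1 CPM in B6 and 62.9 ± 41.1 CPM in Line 4a, varied widely between mice, with *Clic6* at 0.10 (SE 0.10).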
